A study of Mus musculus with 4 samples.

Results

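The cell division program of dystrophic soleus muscle was followed through 36 genes of mitosis and DNA replication. The members were taken by symbol from a fixed list that runs from the proliferation marker Mki67 to the nucleotide synthesis enzyme Tyms, and all 36 were found among the 24054 gene symbols of the count table. RNA was sequenced from 4 soleus muscles of mdx mice, females of the strain C57BL/10ScSn-DMD mdx/J, which carry a mutation of the dystrophin gene in both groups. 2 muscles came from mice given mouse cardiosphere-derived cells (mCDCs, passage 5), a stromal cell type grown from the heart, and 2 from mice given vehicle, the culture medium alone. Infusions into the femoral vein were given monthly from 8 weeks of age, and muscles were taken at the 12-month endpoint. No healthy mouse entered the comparison, and the labels do not say whether the 2 muscles of a group came from separate mice, so p-values measure the spread between these samples.

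A cell that divides copies its DNA in S phase and separates the copies in M phase. Before S phase the licensing factors Cdc6 and Cdt1 load the MCM helicase, made of Mcm2 to Mcm7, onto origins of replication, and the E2F factors drive these genes together with those for nucleotide supply. A second set, held down by the DREAM complex in resting cells and turned on in G2 by MYB-MuvB and Foxm1, holds the mitotic cyclins, the spindle checkpoint and the kinetochore. Muscle fibers themselves do not divide, and in dystrophic muscle the dividing cells are satellite cells, the stem cells of muscle, along with fibroblasts, vessel cells and immune cells. In a whole muscle, fewer dividing cells and less RNA per dividing cell cannot be told apart.

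Each library held between 22481391 and 27187425 expected counts. Levels are given as CPM, the count of a gene scaled to a common library size, with trimmed mean of M-value (TMM) factors for library composition. No other muscle was compared, so the soleus label itself was not tested. All 8 genes of the slow and soleus fiber list had counts in each library and summed to between 116790 and 130601 CPM. Against this, the 36 members together summed to 111 and 118 CPM in the mCDC muscles and 116 and 112 CPM in the vehicle muscles, with 95% counting intervals (exact Poisson) of 107 to 115, 113 to 122, 112 to 120 and 109 to 116. These intervals cover counting error only. The mean sums were 114.4 ± 4.7 and 114.3 ± 2.6 CPM (SD, n = 2 each), and the groups overlapped.

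The promoters of the members carried different letters in mitosis and in replication genes. RefSeq promoter windows of GRCm38.p6 around transcription starts, all of the same length, were held for 29 of the 36 members in 31 windows. The letters of the cell cycle homology region (CHR), TTTGAA or TTCGAA on either strand, were found in 14 of 18 windows of mitosis members (77.8%), in 2 of 12 windows of replication members (16.7%) and in 19.2% of all 32851 windows. E2F letters, taken as TTCCCGC or TTCGCGC or TTGCCGC or TTGGCGC on either strand, went the other way, in 3 of 18 (16.7%), 9 of 12 (75%) and 9.57%. The CCAAT box, whose reverse letters ATTGG can overlap TTGGCGC, was found in 88.9% of the mitosis windows, 75% of the replication windows and 37.4% of all windows. Such matches describe letters and not binding. The 150 bases upstream of the start of 4 members are shown because they set the types side by side, with CHR, CCAAT and E2F letters in capitals. Top2a (chr11:99024190-99024339, minus strand), which unlinks DNA strands, and Ube2c (chr2:164769779-164769928, plus strand), a ubiquitin-conjugating enzyme of the anaphase-promoting complex, have CHR and CCAAT letters only. Cdk1 (chr10:69352913-69353062, minus strand), the mitotic kinase, has all the types, and Mcm6 (chr1:128359706-128359855, minus strand), a helicase subunit, has overlapping E2F letters on both strands and no CHR letters.
Top2a: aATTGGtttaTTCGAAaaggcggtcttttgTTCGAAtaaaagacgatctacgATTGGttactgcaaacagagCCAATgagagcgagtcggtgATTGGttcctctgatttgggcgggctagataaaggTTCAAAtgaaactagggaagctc
Ube2c: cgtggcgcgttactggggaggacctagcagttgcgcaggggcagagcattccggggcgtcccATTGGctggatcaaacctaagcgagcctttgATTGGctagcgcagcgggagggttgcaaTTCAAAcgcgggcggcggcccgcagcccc
Cdk1: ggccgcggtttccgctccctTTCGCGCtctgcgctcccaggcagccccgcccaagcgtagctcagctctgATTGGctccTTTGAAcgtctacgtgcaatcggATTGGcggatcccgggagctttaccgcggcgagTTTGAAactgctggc
Mcm6: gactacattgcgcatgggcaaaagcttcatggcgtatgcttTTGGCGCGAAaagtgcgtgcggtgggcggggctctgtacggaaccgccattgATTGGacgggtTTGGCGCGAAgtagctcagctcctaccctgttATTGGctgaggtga

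**Figure D1:**
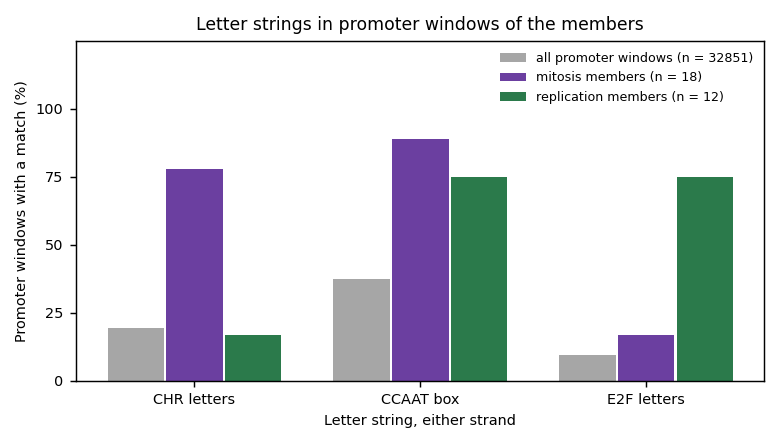
Share of promoter windows (y axis, %) that hold CHR, CCAAT or E2F letters on either strand, for all 32851 windows (grey), 18 windows of mitosis members (purple) and 12 of replication members (green). CHR letters stand at 77.8% in the mitosis bar and 16.7% in the replication bar, and E2F letters at 16.7% and 75%.

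Replication genes made up most of the signal. The 12 replication members held 84.4% of all member counts, and Pcna, Tyms and Rrm1 alone held 49.7%. Per kilobase of transcript, the mean level over the 4 libraries was highest for Pcna at 13.9 CPM per kb, followed by Tyms at 6.27, Rrm1 at 3.99, Mcm7 at 3.66 and Mcm6 at 2.29 CPM per kb. Below these few, mitosis and replication members interleaved. Cenpa, the centromeric histone, led the mitosis members at 1.38 CPM per kb, above Rrm2 at 1.30, while Mki67 stood at 0.0282, Cdk1 at 0.0202, Bub1 at 0.0109 and Cenpe, a kinetochore motor, at 0.00354 CPM per kb. Cdk1, Bub1 and Cenpe had at most 3 counts in every library, so for these 3 no difference was detectable at this depth. Counting them, 5 members had under 10 counts in every library.

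**Figure D2:**
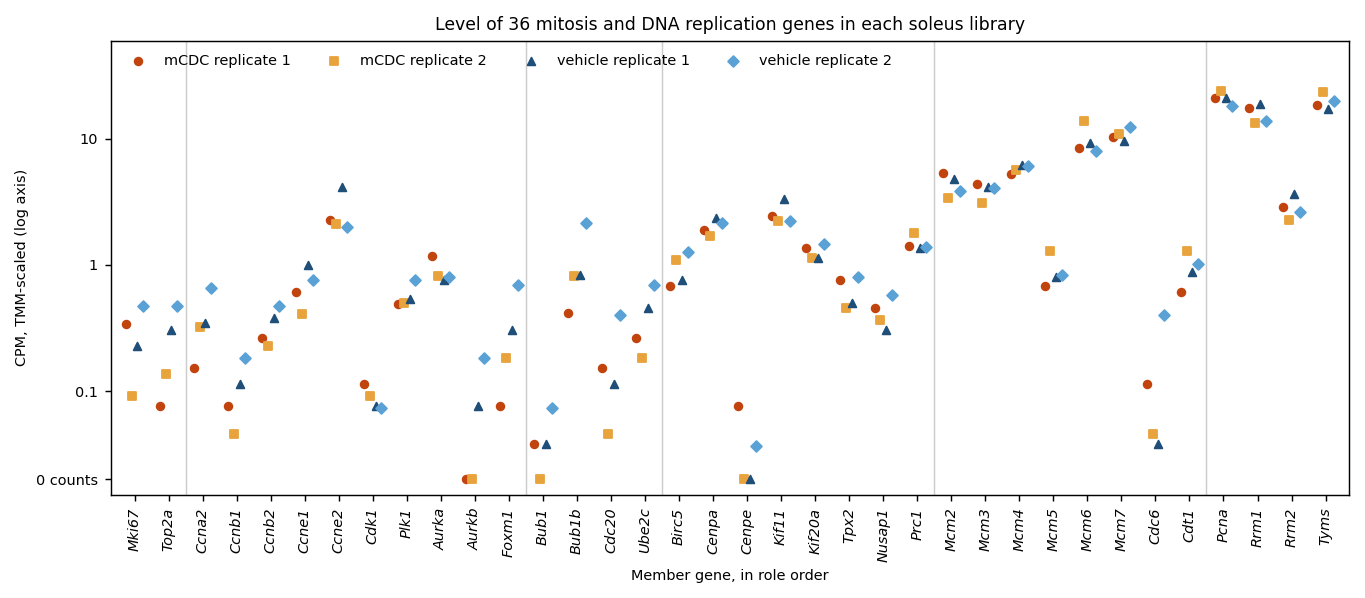
Level of each of the 36 members (x axis, in role order, grey lines between roles) in CPM on a log axis, with 1 point per library and libraries without a count at the bottom. Rrm1, Tyms and Mcm7 lie near or above 10 CPM with the groups mixed, Pcna near 20 CPM with the mCDC muscles just above, and many mitosis genes lie under 1 CPM with vehicle replicate 2 on top.

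No member passed the test between mCDC and vehicle muscles. edgeR's quasi-likelihood test was run on the 25 members that passed the low-count filter, 12 of 22 mitosis members, 11 of 12 replication members and both cyclin E genes. Calls required more than a 1.5-fold difference and p under 0.05 before adjustment, which held for 1.26% of all 13652 genes tested in the higher direction and 2.74% in the lower direction, and for 0 of the 25 members in either. None of the 25 had an unadjusted p under 0.05, and DESeq2, which tested all 36, gave 0 under 0.05 as well. Other edgeR settings gave members an unadjusted p under 0.05, with 1 in the legacy quasi-likelihood test (Ube2c), 2 in the likelihood ratio test (Bub1b and Ube2c) and 4 without the filter (Aurkb, Foxm1, Top2a and Ube2c). The smallest adjusted p of a member was 0.713, for Bub1b. Over all genes, edgeR's quasi-likelihood test gave 947 with an unadjusted p under 0.05 and none with an adjusted p under 0.05, and the smallest adjusted p was 0.200. DESeq2 gave 48 genes with an adjusted p under 0.05 and edgeR's likelihood ratio test 66, with no member among them. The fold changes of the 25 members had a median of -0.11 on the log2 scale (mCDC minus vehicle), with 18 below 0 (72.0%), beside a median of -0.0094 and 51.6% below 0 over all genes. Ube2c and Ccnb2 reached the filter through the vehicle libraries only, so the counts of tested members lean toward lower values for them by construction. Both mCDC libraries lay below both vehicle libraries in 7 of the 25, Ube2c and Ccnb2 among them, and above in 3, beside 19.5% and 19.2% of all genes tested, and nothing is read from these counts.

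**Figure D3:**
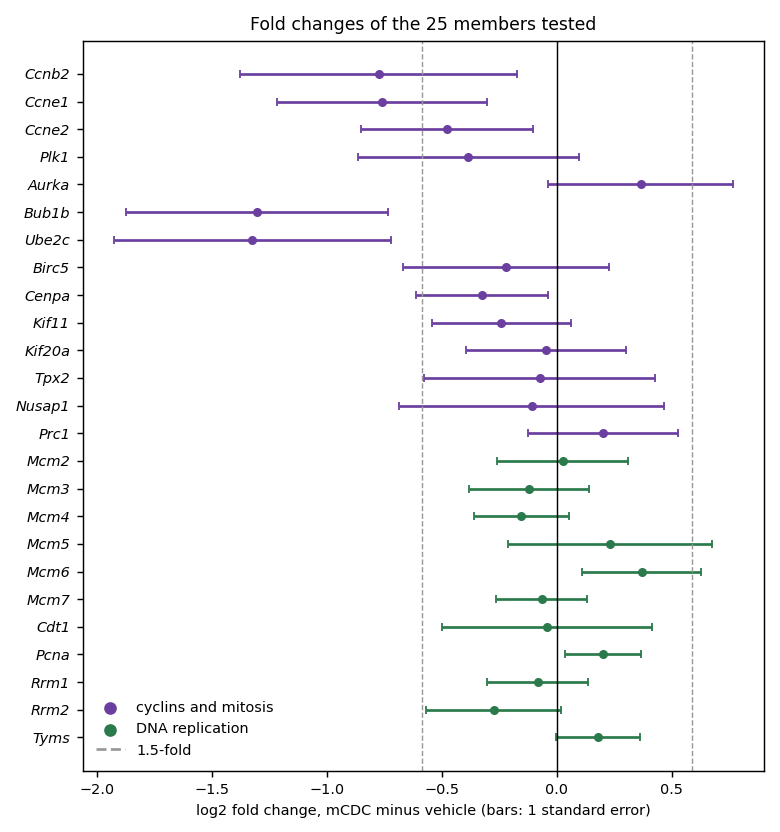
log2 fold change (x axis, mCDC minus vehicle) of the 25 members tested, with bars of 1 standard error and dashed lines at 1.5-fold. The replication members (green) lie between -0.27 and 0.37, and Bub1b and Ube2c lie lowest at -1.30 and -1.32 with standard errors of 0.57 and 0.60.

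The general proliferation markers were too sparse to pass the low-count filter of the main test. Mki67, which coats chromosomes in dividing cells, had 9 and 2 counts in the mCDC muscles and 6 and 13 in the vehicle muscles, or 0.341, 0.0914, 0.229 and 0.473 CPM. These values overlapped between the groups, and the mCDC muscles differed from each other by more than the group means did. Top2a, whose CHR-bearing promoter is printed above, had 2 and 3 counts in the mCDC muscles and 8 and 13 in the vehicle muscles. Its groups did not overlap (0.106 ± 0.043 against 0.389 ± 0.12 CPM, SD, n = 2 each). It fell below the filter. When the filter was dropped, Top2a was called lower in the mCDC muscles, with a log2 fold change of -1.87, though no member then had an adjusted p under 0.05.

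None of the cyclins was called. Ccna2 and Ccnb1 fell below the low-count filter of the main test. Ccna2, the cyclin of S and G2 phase, had 4 and 7 counts in the mCDC muscles and 9 and 18 in the vehicle muscles. Ccnb1 and Ccnb2 are the cyclins that activate Cdk1 at entry into mitosis, and Ccnb1 had 2 and 1 against 3 and 5 counts. Ccnb2 had 7 and 5 against 10 and 13 counts, with a log2 fold change of -0.77 (SE 0.60, adjusted p = 0.785). In these 3 genes the mCDC muscles were the lower pair, as they were in 24.3% of the genes with counts in the range of the mitosis members. Ccne1, a cyclin of the G1 to S transition, had 16 and 9 against 26 and 21 counts, with a log2 fold change of -0.76 (SE 0.46, adjusted p = 0.754). Its partner Ccne2 had 60 and 46 against 108 and 55 counts, and the groups overlapped. 1 vehicle muscle set this difference, as the log2 fold change of -0.48 (SE 0.37) became 0.13 without vehicle replicate 1 and -0.91, which was called, without vehicle replicate 2.

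None of the mitotic kinases was called with the filter in place, and no test over the group was run. Cdk1 had 3 and 2 counts against 2 and 2, which says nothing at this depth. Plk1, which acts at centrosomes and kinetochores, had 13 and 11 against 14 and 21 counts and a log2 fold change of -0.39 (SE 0.48). Aurka, the kinase of spindle poles, pointed the other way with 31 and 18 against 20 and 22 counts and a log2 fold change of 0.36 (SE 0.40). Aurkb, the kinase of the chromosomal passenger complex, had 0 counts in both mCDC muscles and 2 and 5 in the vehicle muscles. These 7 counts in all are too few to give a fold. Foxm1, the transcription factor of the G2 set, had 2 and 4 against 8 and 19 counts and was not tested; without the filter it was called lower, with a log2 fold change of -1.97. Aurkb and Ube2c were also called lower without the filter. Over the 10 cyclins, kinases and Foxm1 the sums were 5.23 and 4.71 CPM in the mCDC muscles and 7.71 and 6.58 CPM in the vehicle muscles. The sums did not overlap, but the counting intervals of mCDC replicate 1 (4.39 to 6.17) and vehicle replicate 2 (5.66 to 7.62) did.

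The spindle checkpoint and the anaphase-promoting complex together hold and then release the sister chromatids, and of their 4 genes here only Bub1b and Ube2c were tested. Bub1b, the checkpoint protein BUBR1, had 11 and 18 counts in the mCDC muscles and 22 and 59 in the vehicle muscles, or 0.417, 0.822, 0.839 and 2.15 CPM. Its groups did not overlap but met, with mCDC replicate 2 and vehicle replicate 1 almost level, and vehicle replicate 2 stood alone above them. The log2 fold change was -1.30 (SE 0.57, adjusted p = 0.713). It was called lower with the replicate number as a block (-1.23), without mCDC replicate 2 (-1.84) and without vehicle replicate 1 (-1.81). Without vehicle replicate 2 the log2 fold change was -0.47 and without mCDC replicate 1 it was -0.86, neither called. Ube2c had 7 and 4 against 12 and 19 counts, or 0.265, 0.183, 0.458 and 0.691 CPM, and a log2 fold change of -1.32 (SE 0.60, adjusted p = 0.724). Its groups did not overlap. Ube2c shares 22.8% of its exon bases with its neighbour Tnnc2 on the other strand, the fast troponin C of muscle, which had 4140 and 4411 CPM in the mCDC muscles and 3083 and 5189 CPM in the vehicle muscles. RSEM gave Ube2c counts that were not whole, and whether strand was used in counting is not given in the sources used here, so reads of Tnnc2 within the Ube2c counts were not tested. Cdc20, the activator of the anaphase-promoting complex, had 4 and 1 against 3 and 11 counts, and Bub1 had 1 and 0 against 1 and 2. Together these 4 genes summed to 0.871 and 1.05 CPM in the mCDC muscles and 1.45 and 3.31 CPM in the vehicle muscles. Bub1b alone gave 2.15 of the 3.31 CPM in vehicle replicate 2, so this sum leans on 1 gene.

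None of the kinetochore, centromere and spindle members was called. The 8 members summed to 9.09 and 8.77 CPM in the mCDC muscles and 9.81 and 9.90 CPM in the vehicle muscles, with overlapping counting intervals. Cenpa had 50 and 37 against 62 and 59 counts and a log2 fold change of -0.33 (SE 0.29). Kif11, the motor that pushes spindle poles apart, had 65 and 49 against 88 and 61 counts (-0.24, SE 0.30). Birc5, or survivin, had 18 and 24 against 20 and 35 counts, and Kif20a, a motor of cytokinesis, 36 and 25 against 30 and 40. In these last 3 genes the groups overlapped. Tpx2, which activates Aurka on the spindle, had 20 and 10 against 13 and 22 counts, and Nusap1, a microtubule bundler, 12 and 8 against 8 and 16. Prc1, which bundles the central spindle, had 37 and 39 against 36 and 38 counts, or 1.40 and 1.78 against 1.37 and 1.38 CPM, with the mCDC muscles just above (0.20, SE 0.33). Cenpe had 2 and 0 against 0 and 1 counts. Kif11, Cenpa, Prc1 and Kif20a supplied 51.0% of all mitosis counts, so a sum over the mitosis genes leans on them.

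**Figure D4:**
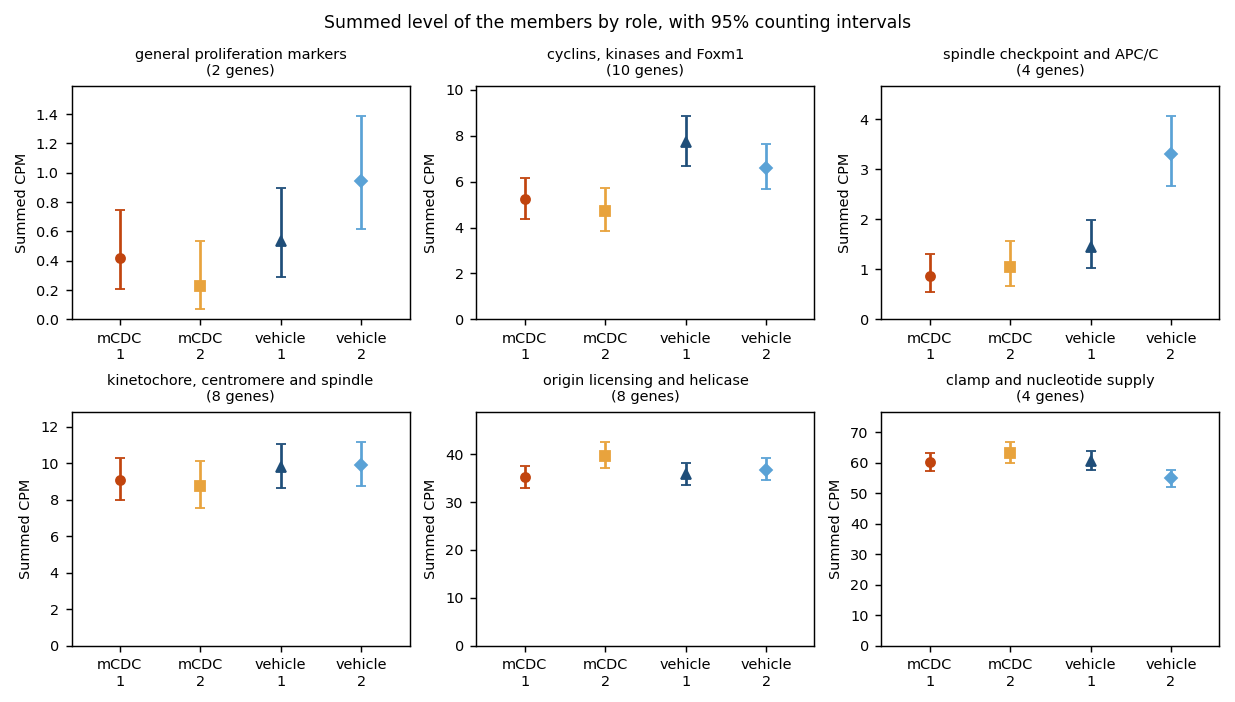
Summed CPM (y axes, each from 0) of the members of 6 roles in each library, with 95% Poisson intervals of the counts as bars. The checkpoint and anaphase-promoting complex (APC/C) genes reach 3.31 CPM in vehicle replicate 2, of which Bub1b gives 2.15, and 0.871 to 1.45 CPM in the other libraries. The clamp and nucleotide genes lie between 54.9 and 63.3 CPM.

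The sums of the replication members lay close together across the 4 muscles. They were 95.4 and 103 CPM in the mCDC muscles and 96.6 and 91.7 CPM in the vehicle muscles, and the log2 ratio was 0.075. Single members spread more widely, such as Mcm6 from 8.04 to 14.0 CPM and Mcm5 from 0.682 to 1.28 CPM. Pcna, the sliding clamp of the polymerases, had 556 and 529 counts in the mCDC muscles and 550 and 505 in the vehicle muscles, and the log2 fold change was 0.20 (SE 0.16). Among the enzymes of nucleotide supply, Tyms, which makes thymidylate, had 18.7 and 23.5 CPM in the mCDC muscles and 17.1 and 20.1 CPM in the vehicle muscles. Rrm1, the large subunit of ribonucleotide reductase, had 17.6 and 13.3 against 19.0 and 13.9 CPM, and Rrm2, the small subunit, 2.88 and 2.28 against 3.66 and 2.62 CPM. Tyms, Rrm1 and Rrm2 all overlapped between the groups.

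None of the helicase subunits Mcm2 to Mcm7 was called in the main test, and their fold changes pointed both ways. Mcm6, whose promoter holds the overlapping E2F letters, had 225 and 306 counts in the mCDC muscles and 245 and 221 in the vehicle muscles, or 8.52, 14.0, 9.35 and 8.04 CPM. The log2 fold change was 0.37 (SE 0.26, adjusted p = 0.769). The difference rested on mCDC replicate 2, as the log2 fold change was -0.028 without that library and 0.69, which was called, without mCDC replicate 1. Mcm4 was the only helicase subunit with both mCDC muscles below both vehicle muscles, at 5.30 and 5.71 against 6.18 and 6.08 CPM (log2 fold change -0.16, SE 0.21). Mcm2 (5.34 and 3.38 against 4.77 and 3.86 CPM), Mcm3 (4.39 and 3.11 against 4.12 and 4.07 CPM), Mcm5 (0.682 and 1.28 against 0.801 and 0.837 CPM) and Mcm7 (10.3 and 10.9 against 9.69 and 12.5 CPM) overlapped. The licensing factor Cdt1 had 16 and 28 against 23 and 28 counts, and Cdc6 had 3 and 1 against 1 and 11, where vehicle replicate 2 held most of the counts.

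Summed over the 22 mitosis members, a split made after the values were seen, levels were 12.7 CPM (95% interval 11.4 to 14.2) and 12.2 CPM (10.8 to 13.8) in the mCDC muscles and 14.4 CPM (13.0 to 15.9) and 17.97 CPM (16.4 to 19.6) in the vehicle muscles. The means were 12.5 ± 0.34 and 16.2 ± 2.5 CPM (SD, n = 2 each), 1.30 times as high with vehicle, and an exact permutation test of 2 against 2 libraries cannot give a p below 0.333. The intervals of both mCDC muscles overlapped that of vehicle replicate 1 and lay below that of vehicle replicate 2. The log2 ratio of -0.37 became -0.21 without vehicle replicate 2. Among the 22 members, both mCDC muscles were below both vehicle muscles in 11 (50%) and above in 3, where 24.3% and 9.67% of the 6099 genes with total counts in the same range were. Vehicle replicate 2 was the highest library for 16 of the 22 (72.7%), and for 40.2% of those 6099 genes. For the 12 replication members it was the highest in 2.

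Markers of several other cell types stood high in the same library. Of 12 marker lists, 8 had their largest sum in vehicle replicate 2, where single markers were the highest in 8 of 8 endothelial, 8 of 8 fibroblast, 8 of 8 erythroid, 5 of 6 Schwann cell and 5 of 8 macrophage genes but only in 1 of 6 adipocyte genes. All 8 endothelial markers had counts in every library, and they summed to 152 and 123 CPM in the mCDC muscles and 132 and 282 CPM in the vehicle muscles. The 8 fibroblast and fibro-adipogenic markers summed to 360, 321, 337 and 573 CPM in that order, and the 8 macrophage markers to 40.9, 48.1, 35.1 and 59.99 CPM. The 8 erythroid markers summed to 270, 280, 245 and 456 CPM, the 6 adipocyte markers to 150, 148, 184 and 216 CPM and the 6 Schwann cell markers to 62.5, 64.3, 59.5 and 81.1 CPM. Fabp4 alone gave 199.9 of the 216 CPM of the adipocyte list in vehicle replicate 2, and the other 5 adipocyte markers were lowest there, as Plin1 at 2.20 and 2.60 against 5.11 and 0.728 CPM. Among the macrophage markers, Cd68 was highest in mCDC replicate 2 (4.13 and 15.4 against 2.71 and 4.15 CPM) and Cd163 in vehicle replicate 1 (2.88 and 2.28 against 4.50 and 2.95 CPM). Over all marker lists 63 genes were tested, of which 4 were called higher (Cd68 and 3 satellite cell markers) and 5 lower (Csf1r, Pdgfra, Lum, Flt1 and Hba-a2), beside 1.26% and 2.74% of all genes. Lymphoid and granulocyte markers were sparse, with the B cell and plasma cell list at 1.14 to 2.18 CPM and Ms4a1 at 0, the neutrophil list at 0.725 to 1.82 CPM with Mpo and Camp at 0, and the T cell list at 1.03 to 1.06 CPM with Cd3g at 0 in every library. The list for cardiac muscle, the donor tissue of the cells, stood at 101 and 116 CPM in the mCDC muscles. It stood at 123 and 113 CPM in the vehicle muscles, whose mice received no cells. Most of it came from Myh6 (54.3 and 68.3 against 75.1 and 66.6 CPM) and Tnnt2 (46.3 and 46.7 against 46.9 and 45.4 CPM). Nkx2-5 was at 0 throughout. The part of these cell types in the mitosis levels was not tested.

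Of the satellite cell and myoblast markers, 3 of the 7 tested were called higher in the mCDC muscles, beside 1.26% of all genes. The 8 genes summed to 226 and 227 CPM in the mCDC muscles and 161 and 164 CPM in the vehicle muscles. Chrna1 (7921 counts over all libraries) and Cdh15 (4261 counts) were the largest parts of these sums, while Pax7 had 235 counts. Neither Chrna1 (log2 fold change 0.25) nor Cdh15 (0.22) was called. Myf5 (log2 fold change 0.034), Vcam1 (-0.11) and the untested Calcr overlapped between the groups. Pax7, the satellite cell factor, rose by 0.76 on the log2 scale (adjusted p = 0.700), Myod1 by 0.84 (adjusted p = 0.635) and Myog, a factor of differentiating myoblasts, by 1.07 (adjusted p = 0.612). None of these passed adjustment over all genes by edgeR's quasi-likelihood test. The Pax7 call was lost without mCDC replicate 1 (0.73), mCDC replicate 2 (0.79) or vehicle replicate 2 (0.65), and with DESeq2 (0.77). The Myod1 call was lost without mCDC replicate 1 (0.44) or vehicle replicate 1 (0.64), and the Myog call without mCDC replicate 2 (0.51).

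**Figure D5:**
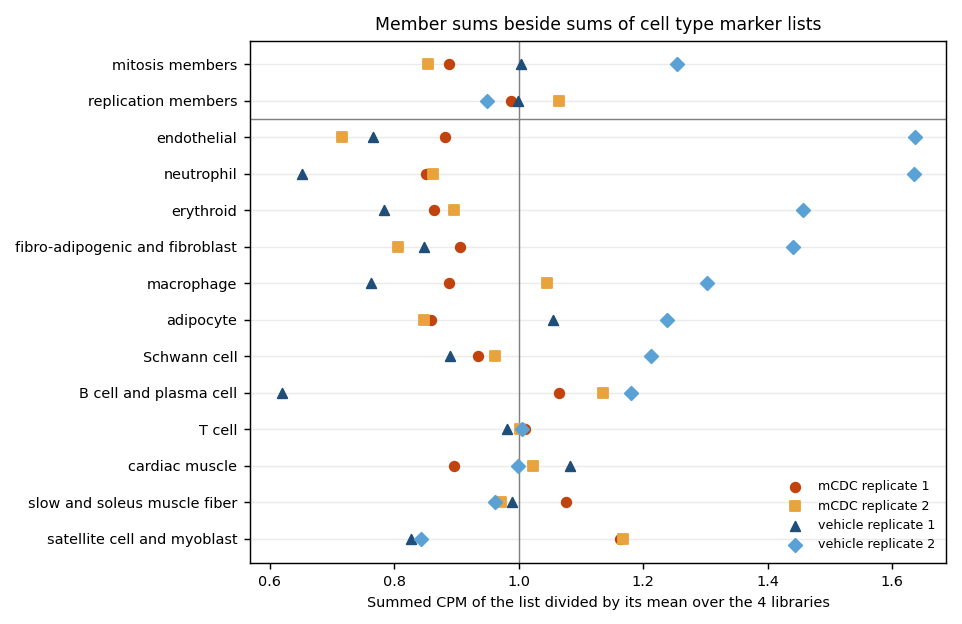
Summed CPM of each list divided by its mean over the 4 libraries (x axis), for mitosis and replication members (top) and 12 marker lists, with 1 point per library. Vehicle replicate 2 stands at 1.25 for the mitosis members and at 1.64 for the endothelial list, while it stands at 0.949 for the replication members and at 0.843 for the satellite cell and myoblast list.

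Beyond the 36 members, 119 other cell cycle genes were measured and 97 were tested. Of these, 1 was called higher and 2 were called lower, no larger a share than the 1.26% and 2.74% of all genes, 4 had an unadjusted p under 0.05, and the median log2 fold change was -0.06, with 55 below 0 and 42 above. Cdkn1a, the inhibitor p21 that stops cyclin-dependent kinases, had 1990 and 2141 counts in the mCDC muscles and 1068 and 1432 in the vehicle muscles. Both mCDC muscles lay well above both vehicle muscles, and Cdkn1a rose by 0.90 on the log2 scale (SE 0.18, adjusted p = 0.462). With 1 library left out its log2 fold change was 0.70 to 1.09, in fits where 1 group is a lone muscle assumed to vary like the other pair. Wee1, the kinase that holds Cdk1 inactive before mitosis, had 31 and 42 against 102 and 67 counts, and fell by 1.05 (SE 0.37, adjusted p = 0.685). The Wee1 call was lost without mCDC replicate 1 (-0.72) and without vehicle replicate 1 (-0.67). E2f4, the repressor E2F of the DREAM complex, also had an unadjusted p under 0.05, at 36.5 and 55.1 against 31.5 and 30.7 CPM, with a fold change short of 1.5. Its log2 fold change of 0.56 was 0.23 without mCDC replicate 2, and 0.83, which was called, without mCDC replicate 1.

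No other upstream regulator was called. Ccnd1, the cyclin of G1 entry, stood at 13.4 and 22.2 CPM in the mCDC muscles and 18.8 and 18.2 CPM in the vehicle muscles, which overlap. Rb1, which restrains E2F, had 23.1 and 20.01 against 30.7 and 24.2 CPM and a log2 fold change of -0.35 (SE 0.18). The 19 genes of the E2F, RB, DREAM and MYB-MuvB list held 9 below 0 and 9 above among 18 tested, and none was called. Among the 13 cyclins, kinases and inhibitors of G1, 5 were below 0 and 8 above. The condensin and cohesin genes, which fold and hold chromosomes, had 7 of 7 tested below 0 with a median of -0.18, and none was called. The nucleotide supply and chromatin replication list had the lowest median, -0.25, with 8 of 10 tested below 0, 1 called lower, and both mCDC muscles below both vehicle muscles in 7 of its 11 genes, beside 51.6% of all genes below 0, 2.74% called lower and 19.5% with both mCDC muscles below. 6 of the 18 other kinetochore, spindle and cytokinesis genes passed the filter, with a median of -0.10, while the 15 other origin and helicase genes had 12 tested and a median of 0.044.

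Several members could share reads with a neighbour. 10 of the 36 had expected counts that were not whole in some library and 26 had whole counts throughout, as RSEM divides reads that fit several transcripts. By the GENCODE annotation of GRCm38, 11 members share exon bases with another gene, among which Kif20a overlaps Cdc23 over 29.3% of its exon bases, Ccne2 overlaps Ints8 over 17.4%, Ccna2 overlaps Exosc9 over 12.5% and Prc1 overlaps Rccd1 over 11.1%, all on the other strand. How many reads of these members came from a neighbour is not known, and the neighbours stood higher. Cdc23 stood at 17.99 and 16.5 against 19.2 and 17.4 CPM and Rccd1 at 8.07 and 9.14 against 8.24 and 9.17 CPM. Exosc9 stood at 25.5 and 27.5 against 24.3 and 22.0 CPM and Ints8 at 15.3 and 13.8 against 14.4 and 14.8 CPM, and the sharing of reads was not tested. Bub1b, Pcna, Cdk1 and Mcm6 share no exon base with another gene. Birc5, Kif11, Tpx2, Mcm5 and Tyms also share none, yet had counts that were not whole. Top2a, Plk1, Foxm1, Cdc20, Nusap1 and Mcm7 overlap another gene and had whole counts. Counts that are not whole thus do not single out the members with an overlapping neighbour.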

How the data were processed

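RNA of 2 mCDC and 2 vehicle soleus muscles of mdx mice was measured by RNA-seq. The authors mapped reads with Bowtie2 2.1.0 to mm10 transcripts and estimated expression with RSEM 1.2.15, per the submitters' processing notes, and deposited expected counts per gene symbol without normalization, of which 15.7% were not whole. The methods name an xGen kit and the labels a TruSeq stranded kit, and strand-specific counting is not given in the sources used here.

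Expected counts were rounded, filtered with filterByExpr (minimum count 10, minimum total 15) and TMM-scaled. Groups were compared by the quasi-likelihood test of edgeR 4.0.16 (R 4.3.3, legacy = FALSE), with mCDC and vehicle as the only term. Benjamini-Hochberg adjustment ran over all genes tested. A prior count of 2 entered the log2 CPM behind the length and GC trend and the replicate correlation, and was not set in the test. Calls needed more than a 1.5-fold difference with p under 0.05 before adjustment. The procedure was tested on simulated data. Depth ran from 22481391 to 27187425 counts. Standard errors (SE) were back-calculated as the absolute log2 fold change over the square root of the test's F statistic. Intervals are exact Poisson at 95%. Where 1 library was left out, the lone library of its group was assumed to vary like the other pair.

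All 36 members were named in role order, with full statistics for the 5 smallest p, Mki67 and Top2a. Other cell cycle genes were named when called, except 1 that is not reported here, with Cdkn1a, Ccnd1 and Rb1, and E2f4 was added after its values were seen, as were overlapping neighbours. Members and lists were chosen with earlier results of these data known. The mitosis and replication sums, and the 6099 genes of like counts, were chosen after the values were seen. Lengths came from GENCODE for GRCm38 (mm10), where 22750 symbols matched by name and 943 by an older name. Trac and Ly6g were not matched in the table. Promoters came from RefSeq GRCm38.p6. Alternatives were DESeq2 1.42.0 with its size factors, other edgeR tests, filters, thinning, removal of a trend with length and GC, a replicate block, and omission of each library in turn.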

Additional observations from a re-analysis of the deposited data

How the results depend on the processing

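The 25 tested members gave 317 values under the alternatives, of which 280 kept their direction and their side of the threshold, 12 passed the threshold and 25 changed sign. 12 members changed sign under no alternative that was run and 13 under at least 1. The number of members called lower, 0, became 1 with the legacy quasi-likelihood test (Ube2c), 2 with the likelihood ratio test (Bub1b and Ube2c), 4 without a filter (Aurkb, Foxm1, Top2a and Ube2c), and 1 each with at least 10 counts in every library (Bub1b), thinning to the smallest library (Bub1b) and a length and GC trend removed (Ube2c). It ranged from 0 to 3 when 1 library was left out, with Bub1b and Foxm1 called without mCDC replicate 2, Bub1b, Foxm1 and Top2a without vehicle replicate 1, and Ccne2 without vehicle replicate 2. Members called higher ranged from 0 to 1 (Mcm6, without mCDC replicate 1). The cause was not tested. With the replicate number as a block, 1 member was called lower (Bub1b), and the block changed no other member's call. The deviations of samples with the same number had a correlation of -0.04 over 2 pairs, so the numbers only name the samples.

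Leaving out 1 library gave 112 (without mCDC replicate 2) to 397 genes called higher, beside 172, and 236 (without mCDC replicate 2) to 834 (without vehicle replicate 1) called lower, beside 374. Without vehicle replicate 1 there were 273 called higher. Over all genes, the number with an adjusted p under 0.05 ranged from 0 (vehicle replicate 1 left out) to 91 (mCDC replicate 1 left out), and no member was among them. The other cell cycle genes gave 1 to 3 called higher, 3 without mCDC replicate 1 or vehicle replicate 2, and 1 to 2 called lower, 1 without either mCDC library or without vehicle replicate 1. DESeq2 called 1 of them lower, and 3 were called lower with at least 10 counts in every library. The members' median log2 fold change was -0.21 with DESeq2 and -0.23 without a filter, both over 36 members, and -0.36 to -0.016 with 1 library left out. The log2 ratio of the mitosis sum ranged from -0.52 to -0.21.

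Sign changes without a left-out library were those of Kif20a (0.051 after thinning), Tpx2 (0.0064 with the trend removed, 0.13 after thinning) and Mcm2 (-0.0035 with the block, -0.0044 with the trend removed). With 1 library left out, log2 fold changes ranged from -0.91 to 0.13 for Ccne2, -0.58 to 0.20 for Birc5, -0.51 to 0.089 for Kif11, -0.21 to 0.13 for Kif20a, -0.51 to 0.31 for Tpx2, -0.49 to 0.43 for Nusap1, -0.35 to 0.31 for Mcm2, -0.40 to 0.10 for Mcm3, -0.26 to 0.64 for Mcm5, -0.028 to 0.69 for Mcm6, -0.23 to 0.13 for Mcm7, -0.64 to 0.43 for Cdt1, -0.30 to 0.16 for Rrm1 and -0.47 to 0.26 for Ccnd1. With 2 muscles per group and under 10 counts in every library for 5 members, a small difference in mitosis genes was not detectable, and a value near 0 is no proof that levels were equal.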
